A study of Homo sapiens with 17 samples.

Results

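The RNA captured by the J2 antibody was compared gene by gene between untreated H23 and untreated PC9 cells. All 37 genes of the human mitochondrial genome (ChrMT) and the D-loop row of the annotation were taken as members, without regard to their values, which made 38 of the 38 rows of this kind in the counts. The comparison used 6 of the 17 libraries of the series, namely replicates 1, 2, and 3 of each line. The edgeR and DESeq2 fits held 9 libraries, with replicates 1, 2, and 3 of untreated H1437, another line of the study, added. The H1437 libraries entered the filter on low counts, the normalization of the relative test, and the estimate of the spread. Replicate 4 of each line, which the labels list without any agent, served only as a check.

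H23 and PC9 are human non-small cell lung cancer cell lines, and neither received an agent or a knockdown in these libraries. In every library, double-stranded RNA (dsRNA) was immunoprecipitated with J2 (RIP-seq), tailed with poly(A) in vitro, amplified as PCR-cDNA, and sequenced as nanopore long reads. The study calls its replicates independent experiments, whereas the sample labels do not say how the cultures were kept apart. Each line stands for itself alone, so that a difference between the lines cannot be assigned to any one of their many genetic differences.

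The mitochondrial genome is a small circle that is transcribed from both strands into long precursors. The heavy-strand precursor carries both rRNAs, most tRNAs, and nearly all messenger RNAs, while the light-strand precursor carries ND6, a minority of the tRNAs, and long noncoding stretches. The tRNAs lie between the other genes, and their excision by RNase P and ELAC2 releases the mature RNAs. Where the complementary transcripts of both strands escape degradation by SUV3 and PNPase they can pair into mitochondrial dsRNA (mtdsRNA), which J2 binds and which innate immune sensors such as MDA5 recognize in the cytoplasm.

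Sequencing depth was 122304 to 601633 total reads in H23 and 501188 to 723097 in PC9. The share of reads that mapped to ChrMT was 11.0% to 24.4% in the H23 libraries and 1.89% to 7.45% in the PC9 libraries. The text of the study attaches the averages of these shares to H23 and H1437 the other way round from the deposited table. Elsewhere it describes H23 as the line with the highest mtdsRNA signal and reports enrichment of aligned reads in H23 over H1437 and PC9. Lines are named here as the sample labels name them, which bears on every H23 value. Levels are given as reads per 1000000 total reads (RPM). RPM values move with this share by construction. PC9 replicate 1 stood apart, with 20 of the 22 tRNA genes at 0 counts, which at its depth allows up to 5.99 RPM each. H23 replicate 1 was the shallowest library and had 3 tRNA genes at 0. The tRNA genes took 39.9% of gene-row counts in H23 replicate 2 and 33.5% in PC9 replicate 3, against 0.876% to 14.7% in the other 4 libraries. A gene row counted only reads that touched that gene and no other, and the strand of a row is that of the annotation. The strand setting of the count is not given in the sources used here, but the counts appear not to have used strand. In H23 replicate 3, 1789 of 1970 reads on the minus-strand gene TRNY also touched a protein-coding gene, and its neighbor COX1 is on the plus strand. Reads from a gene and from its antisense side therefore cannot be told apart.

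The mean log2 level (pseudocount 1 RPM) was higher in H23 than in PC9 for all 38 rows. The median difference was 3.43 on the log2 scale, from 0.72 for TRNR to 5.12 for TRNA, and this median was 2.26 without PC9 replicate 1 and 1.96 with mapped reads as the denominator. Direction depended on the denominator for both rRNA genes and for most tRNA genes: with mapped reads in place of total reads, the edgeR log2 fold change was above 0 in 12 of 12 tested protein-coding genes, 8 of 21 tested tRNA genes, and 0 of 2 rRNA genes. All 3 H23 libraries lay above all 3 PC9 libraries in 17 rows, which is 44.7% of the rows, and the reverse was seen in 0 rows (0.0%). These 17 rows were 11 of 13 protein-coding genes and 6 of 22 tRNA genes, and neither of the rRNA genes nor the D-loop row. They were the same 17 when replicate 4 of each line was added. Without PC9 replicate 1 no row was added, and leaving out a library cannot remove a row. The set changed when reads that also touched a gene of another class were counted. ND1, COX1, and TRNL1 then overlapped, while TRNV, TRNW, and TRNS1 no longer did. On that count COX1 was at 3156 RPM in H23 replicate 1 and 3395 in PC9 replicate 2, and ND1 was at 1717 and 3059 in the same libraries. The 9 pairings of 1 H23 with 1 PC9 library had from 25 rows (H23 replicate 3 over PC9 replicate 3) to 38 rows (H23 replicates 2 and 3 over PC9 replicate 1) higher in H23.

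**Figure D1:**
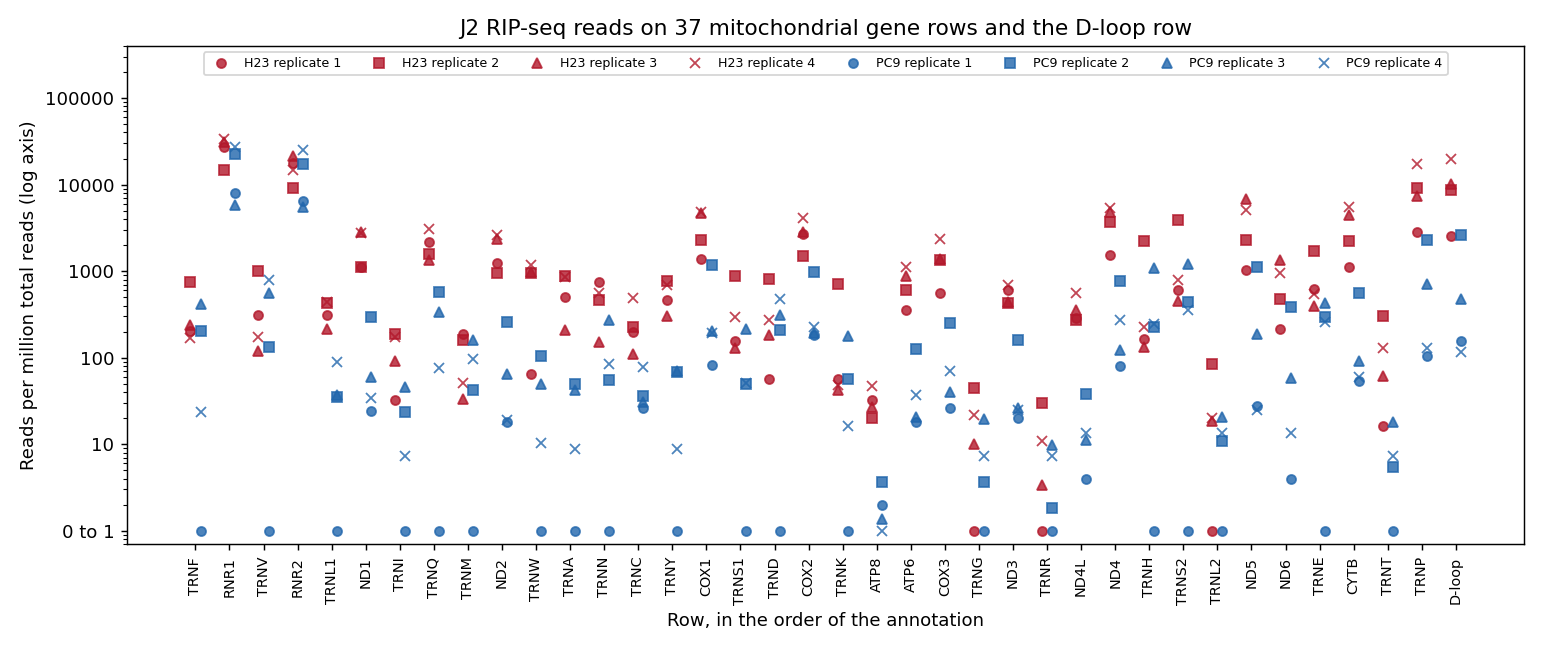
RPM (log axis) in each library for the 38 rows in annotation order, with H23 in red, PC9 in blue, and replicate 4 as crosses. Symbols at the lowest tick stand for 0 to 1 RPM, where PC9 replicate 1 sits for 20 tRNA genes, and the red symbols lie above the blue ones in 17 rows.

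No row passed the test on this scale. In edgeR's quasi-likelihood test with Benjamini-Hochberg adjustment, 0 of 36 tested rows were called (0.0%), the smallest adjusted p was 0.187, and 7 rows had an unadjusted p under 0.05. DESeq2 on the same counts called 10 of 36 rows (27.8%), all higher in H23. The edgeR test called 10 of 15 rows once the tRNA gene rows were left out, 12 without PC9 replicate 2, and 13 of 37 with replicate 4 added, again all higher in H23.

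The genes RNR1 and RNR2, whose products are the small and large ribosomal RNA of mitochondria, had the highest mean RPM of all rows in both lines, although TRNP exceeded RNR2 in H23 replicate 2 and both TRNP and the D-loop row did so in H23 replicate 4. RNR1, at ChrMT 648 to 1601, held 26884, 14677, and 30838 RPM in H23 replicates 1, 2, and 3 and 7983, 22530, and 5749 in PC9. RNR2, at 1671 to 3229, held 17645, 9127, and 21329 in H23 and 6379, 17311, and 5493 in PC9. For both genes PC9 replicate 2 lay above H23 replicate 2, and the lines overlapped. The edgeR log2 fold changes were 1.00 (SE 0.57, adjusted p = 0.256) for RNR1 and 0.72 (SE 0.56, adjusted p = 0.373) for RNR2, and with mapped reads as the denominator they turned to -1.05 and -1.38. Without PC9 replicate 2 both genes were called higher in H23 by edgeR, with 1.81 (adjusted p = 0.0154) and 1.43 (adjusted p = 0.0271). In replicate 4, RNR1 was 1.23-fold higher in H23 and RNR2 was 0.588 times the PC9 level.

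The 7 complex I subunits, parts of the NADH dehydrogenase of the respiratory chain, had log2 differences of 3.41 to 4.51 (median 3.93). ND1 held 1104, 1105, and 2860 RPM in H23 and 23.9, 296, and 59.5 in PC9. ND2 held 1243, 947, and 2337 in H23 and 18.0, 256, and 65.0 in PC9. For both genes each H23 library was above every PC9 library, and the means were 13.4-fold apart. ND4 held 1529, 3683, and 4796 in H23 and 79.8, 760, and 123 in PC9. ND4L, whose end overlaps the start of ND4, lay at 269 to 358 in H23 and 3.99 to 38.4 in PC9. ND3 lay at 434 to 613 in H23 and 20.0 to 159 in PC9, so that these 3 genes did not overlap between the lines either. ND5 held 1022, 2305, and 6752 in H23 and 27.9, 1120, and 188 in PC9. ND6, the only protein-coding gene annotated on the minus strand, held 213, 472, and 1347 in H23 and 3.99, 382, and 58.1 in PC9. ND5 and ND6 lie end to end on opposite strands and were the 2 protein-coding genes in which the lines overlapped, in each case with PC9 replicate 2 above H23 replicate 1. In replicate 4, ND5 was 202-fold and ND6 was 72.0-fold higher in H23.

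CYTB, the mitochondrially encoded subunit of complex III, held 1104, 2241, and 4398 RPM in H23 and 53.9, 564, and 92.7 in PC9. COX1, the catalytic core of cytochrome c oxidase (complex IV), held 1398, 2314, and 4728 in H23 and 81.8, 1163, and 205 in PC9. COX2, which takes electrons from cytochrome c, held 2706, 1496, and 2845 in H23 and 184, 970, and 194 in PC9. COX1 and COX2 had the narrowest gaps of the 11 genes without overlap, with PC9 replicate 2 nearest to the lowest H23 library. COX3, another core subunit, held 556, 1360, and 1385 in H23 and 25.9, 250, and 40.1 in PC9. ATP6, a channel subunit of ATP synthase (complex V), lay at 360 to 871 in H23 and 18.0 to 126 in PC9. ATP8, which shares bases with ATP6, lay at 20.0 to 32.7 in H23 and 1.38 to 3.65 in PC9, and it was too low to be tested. In replicate 4 all 13 protein-coding genes were higher in H23, with a median log2 difference of 5.28.

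The edgeR log2 fold changes for the level of the protein-coding genes ran from 2.20 for ND6 (SE 1.71, adjusted p = 0.373) to 4.09 for ND4L (SE 1.42, adjusted p = 0.187). ND6 was at 1.21 without H23 replicate 3 and at 4.44 without PC9 replicate 2. Per kilobase of gene, COX2 was the highest protein-coding gene in both lines, with a mean of 3434 RPM per kilobase in H23 and 656 in PC9, and ATP8 was the lowest, with 128 and 11.3. The rRNA genes were above every protein-coding gene on that scale in both lines, at 25296 and 10284 in H23 and 12670 and 6240 in PC9 for RNR1 and RNR2. This order is one of gene rows and not of transcript levels, because reads that also touched another gene are left out, and their part differed by gene. In H23 replicate 2 the gene row kept 665 of 7919 reads counted on the coding sequence of ND1 and 900 of 1693 for COX2.

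The tRNA genes decode the mitochondrial messages and also punctuate the precursors. Their log2 differences in RPM had a median of 3.19, beside 3.43 over all rows, and the spread between libraries was wide, with a median SD of 1.44 in H23 and 3.71 in PC9 on the log2 scale. TRNA, TRNQ, TRNY, and TRNL1 are described as those with the largest differences of mean log2 RPM among tested tRNA genes, an order that rests on the zeros of PC9 replicate 1. By edgeR log2 fold change of the level, TRNT (4.00) and TRNW (3.69) stood above TRNQ (2.49). TRNA (alanine) held 507, 874, and 208 RPM in H23 and 0, 49.3, and 42.9 in PC9. TRNQ (glutamine) held 2183, 1586, and 1335 in H23 and 0, 572, and 337 in PC9. All H23 libraries were above the PC9 libraries for both. TRNY (tyrosine) held 466, 765, and 305 in H23 and 0, 67.6, and 70.5 in PC9. TRNL1, a leucine tRNA directly after RNR2, held 311, 427, and 214 in H23 and 0, 34.7, and 37.3 in PC9. The zeros are those of PC9 replicate 1, and the absence of overlap for these 4 genes rests on the other 2 PC9 libraries, which were higher. For TRNL1, however, most reads also touched a neighboring gene and are left out of these values. With those reads counted the lines overlapped for TRNL1, as given below.

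TRNG, TRNL2, TRND, and TRNM had the smallest differences among tested tRNA genes, and all 4 had edgeR log2 fold changes below 0 with mapped reads as the denominator. TRNG (glycine) held 0, 44.9, and 10.1 RPM in H23 and 0, 3.65, and 19.4 in PC9. TRNL2 (the other leucine tRNA) held 0, 84.8, and 18.6 in H23 and 0, 11.0, and 20.7 in PC9. Both lines had a library at 0 for these genes, and the lines overlapped. TRND (aspartate) held 57.2, 808, and 182 in H23 and 0, 206, and 315 in PC9. TRNM (methionine) held 188, 160, and 33.8 in H23 and 0, 42.0, and 160 in PC9. For TRND and TRNM the order of the lines turned in replicate 4, where H23 was at 0.578 and 0.519 times the PC9 level.

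By annotated strand, the lines did not overlap in 5 of 8 minus-strand tRNA genes (TRNQ, TRNA, TRNC, TRNY, and TRNP) and in 1 of 14 plus-strand tRNA genes (TRNL1), beside 44.7% of all rows. The difference between the strands was not tested, and the annotated strand does not give the strand of the reads. The median log2 difference was 3.92 for the minus-strand tRNA genes and 2.74 for the plus-strand ones. In replicate 4, H23 was higher in 8 of 8 and in 10 of 14. The 9 minus-strand genes together held 7956, 16123, and 11463 RPM in H23 and 136, 3784, and 2164 in PC9. This difference of 3.46 in mean log2 level had p = 0.10 in a two-sided exact permutation test (adjusted p = 0.20 over 10 tests of class sums), and 0.10 is the smallest p that 3 against 3 libraries allow. Without PC9 replicate 1 the difference was 1.99. TRNP, next to the D-loop, was the largest part of the minus-strand sum in each library of replicates 1 to 3. It held 2862, 9152, and 7477 RPM in H23 and 106, 2281, and 707 in PC9. In PC9 replicate 4 TRNE (258 RPM) stood above TRNP (129 RPM). A read that touched both TRNP and the D-loop may be counted in both rows.

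Along the genome, the lines did not overlap in 1 of 5 rows from TRNF to TRNL1, 3 of 5 from ND1 to ND2, 3 of 5 from TRNW to TRNY, 8 of 13 from COX1 to ND4, 0 of 3 from TRNH to TRNL2, and 2 of 7 from ND5 to the D-loop, beside 44.7% of all rows. The median differences of mean log2 RPM in these stretches were 2.92, 4.31, 4.50, 3.20, 2.56, and 3.78 in the same order. The median edgeR log2 fold changes of the level were 1.00, 2.49, 3.47, 2.54, 1.61, and 2.70. The order of the stretches thus depended on the measure. It differed again in replicate 4, where the stretch from ND5 to the D-loop had the highest median log2 difference, 6.50, and that from TRNF to TRNL1 the lowest, 0.30. TRNP (proline), next to the D-loop, held 2862, 9152, and 7477 RPM in H23 and 106, 2281, and 707 in PC9.

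The D-loop row starts at ChrMT 16024, in the noncoding control region with the promoters and the origin of heavy-strand replication. Of its bases, 546 lie before the end of the reference sequence. The other 576 lie past that end, where no read can map, so that the row counts only part of the control region. The row held 2559, 8750, and 10036 RPM in H23 and 156, 2645, and 480 in PC9. The 2 lines overlapped only in that PC9 replicate 2 exceeded H23 replicate 1. The difference of 3.38 in mean log2 level had p = 0.20 (two-sided exact permutation test, adjusted p = 0.222), and in replicate 4 the row was 170-fold higher in H23.

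**Figure D2:**
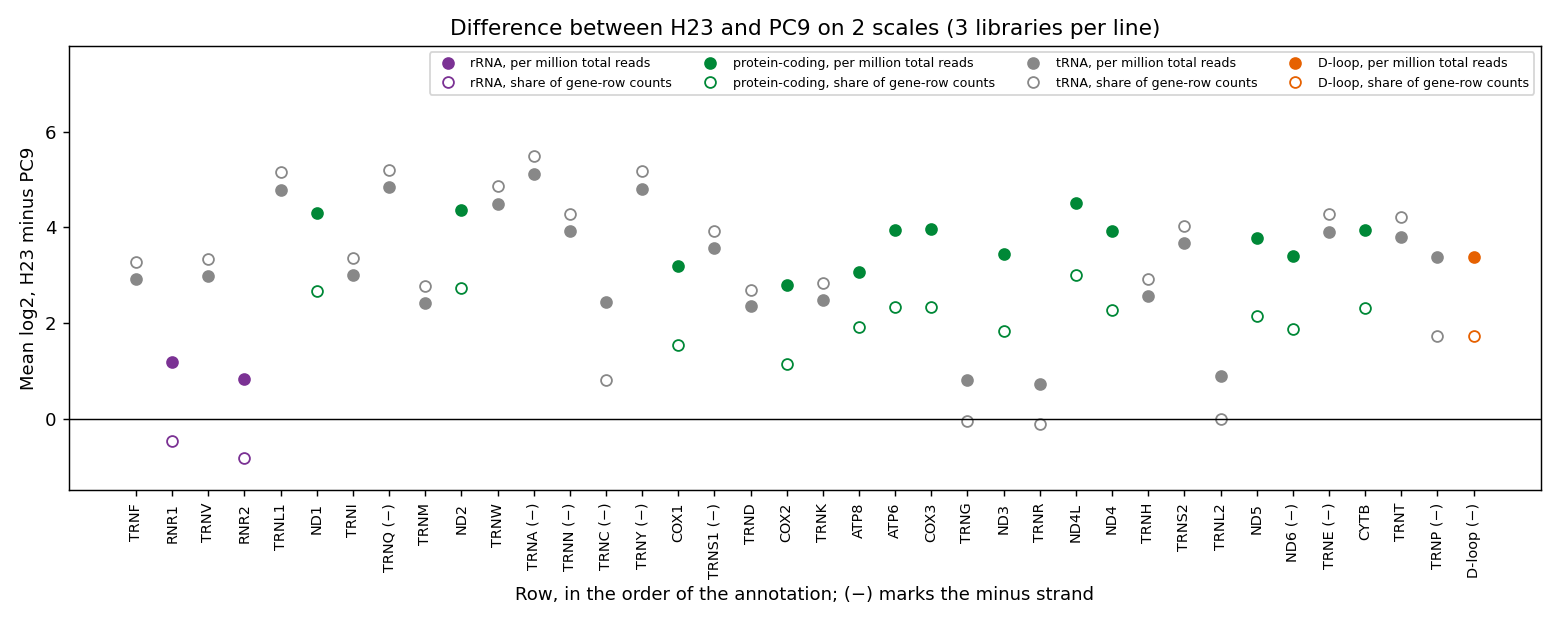
Mean log2 difference, H23 minus PC9, with 3 libraries per line, for each row in annotation order, colored by class. Filled symbols are from RPM and open symbols are shares of gene-row counts. RNR1 and RNR2 lie above 0 when filled (1.19 and 0.83) and below 0 when open (-0.47 and -0.82), and all 13 protein-coding genes lie above 0 on both scales.

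As a share of gene-row counts, which removes the difference in total mapped reads, the lines did not overlap in 12 rows. H23 was higher in 11 rows (28.9%), namely 10 of the 13 protein-coding genes and TRNL1, and PC9 was higher in 1 row (2.63%), RNR2. The same 12 rows were without overlap with replicate 4 added. RNR2 made up 26.5%, 13.4%, and 21.8% of gene-row counts in H23 and 42.4%, 34.1%, and 29.6% in PC9. RNR1 made up 40.5%, 21.5%, and 31.5% in H23 and 53.1%, 44.3%, and 31.0% in PC9, and overlapped.

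The test of each row against the others (edgeR, TMM normalization) called 4 of 36 rows (11.1%), all higher in H23. They were ND1, with a log2 fold change of 2.53 (SE 0.64), ND2 with 2.49 (SE 0.62), ATP6 with 2.23 (SE 0.55), and ND4L with 2.78 (SE 0.72), each with an adjusted p of 0.0493. These calls sat at the threshold, and the fold changes moved with the libraries used. Without PC9 replicate 3 they were 1.20, 1.38, 0.45, and 1.51, and without H23 replicate 3 they were 1.39, 1.64, 1.01, and 2.11. Without PC9 replicate 1 ATP6 was at 1.45. With the 6 libraries alone they were 1.54, 1.62, 0.92, and 1.82 in the same order. None remained when only the 6 libraries entered the fit, when low rows were kept, when the tRNA gene rows were left out, or without any one of H23 replicates 2 and 3 and PC9 replicates 1, 2, and 3. With replicate 4 added ND1, ND2, and CYTB were called. DESeq2 called 2 of 36 rows (5.56%), RNR1 and RNR2, both lower in H23, in place of these genes. In edgeR the relative log2 fold change of RNR2 was -0.998 (SE 0.34, adjusted p = 0.0798), and it was -2.77 without PC9 replicate 3, -1.80 without H23 replicate 3, and -2.34 with the 6 libraries alone.

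By class, protein-coding genes made up 18.3%, 25.2%, and 33.8% of gene-row counts in H23 (25.8% ± 7.77, SD, n = 3) and 3.61%, 12.0%, and 5.85% in PC9 (7.15% ± 4.33, SD, n = 3). The rRNA genes made up 51.7% ± 16.1 in H23 and 78.2% ± 17.4 in PC9, and the tRNA genes 22.5% ± 15.1 and 14.7% ± 16.9. The protein-coding share was higher in each H23 library than in any PC9 library, at the smallest p the design allows (two-sided exact permutation test, p = 0.10, adjusted p = 0.20). The rRNA share (p = 0.20) and the tRNA share (p = 0.50) overlapped in the same exact test. In replicate 4 the protein-coding share was 32.1% in H23 and 1.74% in PC9, and the rRNA share was 43.4% and 93.2%.

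**Figure D3:**
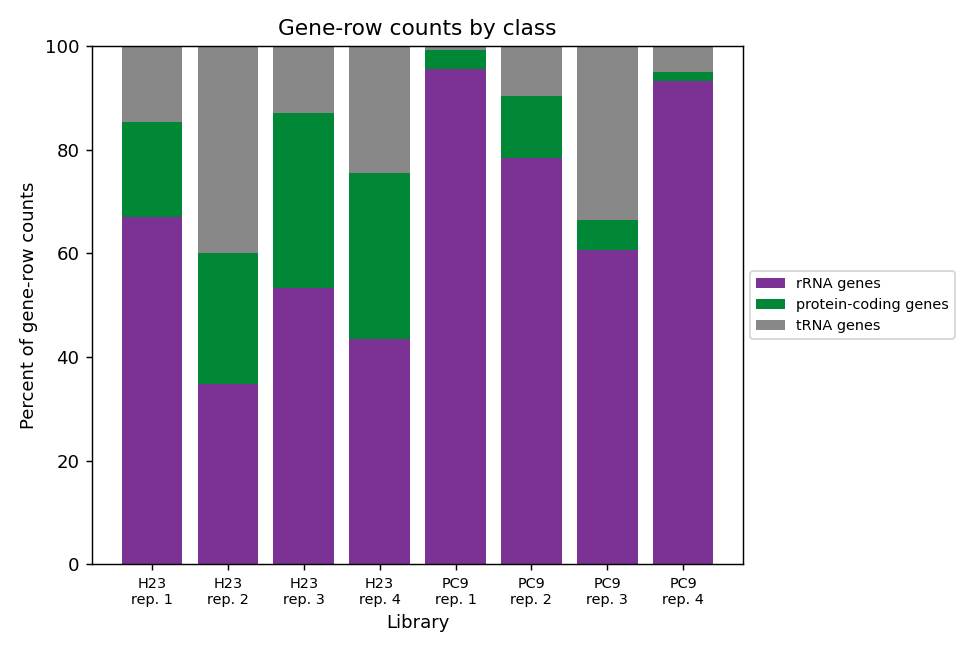
Percent of gene-row counts on rRNA, protein-coding, and tRNA genes in each library, replicate 4 included. The protein-coding part spans 18.3% to 33.8% in H23 replicates 1 to 3 and 3.61% to 11.98% in PC9, while the tRNA part is largest in H23 replicate 2 and PC9 replicate 3.

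The annotation also has a class row for each rRNA, tRNA, and coding sequence, which lost only reads that touched a second feature of its own class. The class row minus the gene row therefore gave the reads that ran from a gene into a gene of another class. Reads spanning 2 genes of one class are in neither row, so that a tRNA gene lying between other tRNA genes, such as TRNQ, had no such reads. Of the rRNA class-row reads, 94.3%, 92.4%, and 92.7% touched a single gene in H23 and 82.4%, 87.2%, and 85.2% in PC9. This difference of 8.17 percentage points had p = 0.10 (two-sided exact permutation test, adjusted p = 0.30 over 3 classes), and replicate 4 gave 92.6% and 85.3%. The share touching a single gene overlapped between the lines for protein-coding genes (p = 0.40, exact test) and for tRNA genes (p = 0.50, exact test).

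Gene by gene, the single-gene share did not overlap between the lines in 3 of 37 genes, all higher in H23 (8.11%), and in 0 genes with PC9 higher (0.0%). These genes, RNR2, TRNL1, and COX3, were named after their values were seen, and their values are a description without a test. Reads that touched both RNR2 and a tRNA gene were 11.9%, 15.7%, and 14.0% of RNR2 class-row reads in H23 and 31.6%, 24.5%, and 25.2% in PC9. RNR1 showed no such gap, with 1.66% ± 0.41 in H23 and 1.35% ± 0.36 in PC9 (SD, n = 3). The reads joining RNR2 to a tRNA gene came to 2387, 1699, and 3458 RPM in H23 and 2949, 5615, and 1846 in PC9, so that their level overlapped.

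TRNL1 (ChrMT 3230 to 3304) lies between RNR2 and ND1 (3307 to 4262). Its gene row held 12.4%, 3.19%, and 2.00% of its class-row reads in H23 and 0%, 0.454%, and 1.89% in PC9. The TRNL1 class row held 2502, 13405, and 10724 RPM in H23 and 2923, 7638, and 1978 in PC9, so that the lines overlapped. On class rows its edgeR log2 fold change of the level was 1.09 (adjusted p = 0.348), against 3.72 on gene rows. Of TRNL1 class-row reads, 83.0%, 11.9%, and 29.0% also touched an rRNA gene in H23 and 99.7%, 71.5%, and 90.7% did so in PC9. Reads that also touched a protein-coding gene but no rRNA gene were 4.58%, 84.9%, and 69.0% in H23 and 0.273%, 28.0%, and 7.41% in PC9. A read that touched genes of both kinds is in the rRNA share alone, so that the shares depend on one another. H23 replicates 2 and 3 thus had TRNL1 mostly joined to the protein-coding side, and H23 replicate 1 and all PC9 libraries had it mostly joined to the rRNA side. Both measures overlapped between the lines through H23 replicate 1, where they rested on 306 reads. In replicate 4, the share joined to an rRNA gene was 40.1% in H23 (95% Wilson interval 38.6% to 41.5%) and 98.9% in PC9 (98.6% to 99.1%). These intervals describe counting error alone, because amplified reads can be copies of the same molecule.

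COX3 (ChrMT 9207 to 9990) is followed directly by TRNG (9991 to 10058). Reads of the COX3 class row that also touched a tRNA or rRNA gene were 41.9%, 23.5%, and 27.8% in H23 and 86.5%, 65.8%, and 76.6% in PC9. The lowest class-row count was 96 reads, in PC9 replicate 1, for which the 95% Wilson interval was 78.2% to 91.9%. All 3 PC9 libraries were above all H23 libraries in this share, and replicate 4 gave 33.8% in H23 and 79.1% in PC9. The level of these joined reads overlapped, at 401, 417, and 533 RPM in H23 and 166, 480, and 131 in PC9. Of TRNG class-row reads, 97.7% ± 3.24 in H23 and 95.8% ± 6.79 in PC9 (SD, n = 3) touched a protein-coding gene as well, so that the low TRNG gene row left out nearly all reads on TRNG in both lines.

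**Figure D4:**
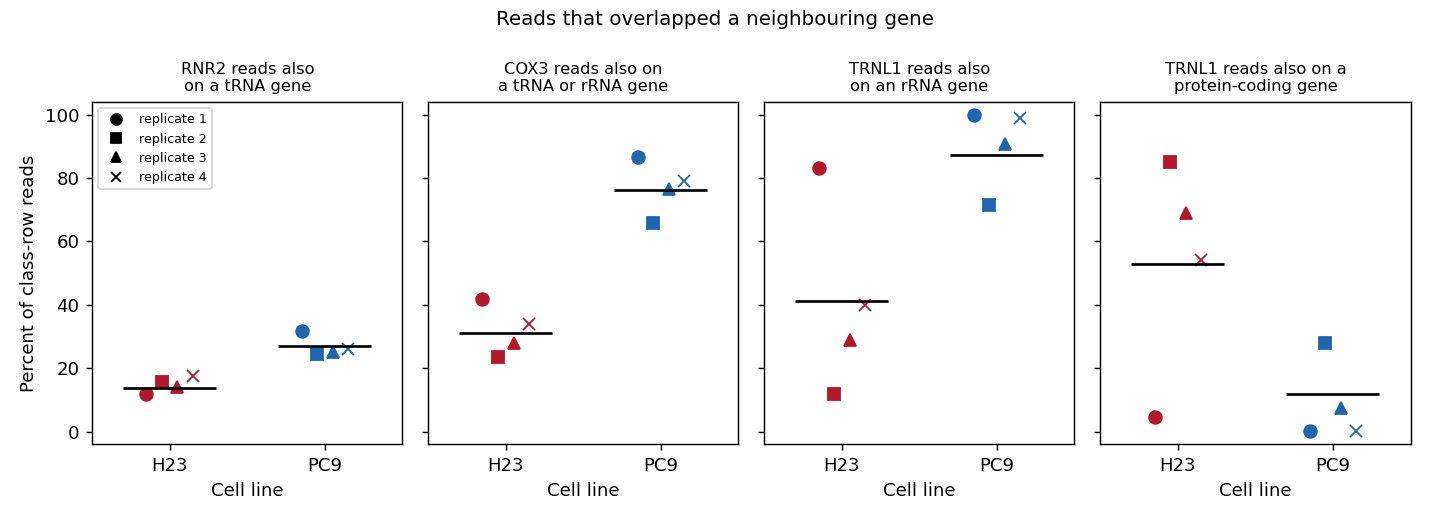
Percent of class-row reads that also touched a neighboring gene, by cell line, with 1 symbol per library, replicate 4 as crosses, and the mean of replicates 1 to 3 as a line. PC9 lies above H23 in all libraries for RNR2 (24.5% to 31.6% against 11.9% to 15.7%) and for COX3, whereas both TRNL1 measures overlap through H23 replicate 1. The TRNL1 measure for protein-coding genes leaves out reads that also touched an rRNA gene.

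The gene rows and the D-loop row held 62.6%, 45.4%, and 44.3% of all mapped reads in H23 and 80.4%, 71.8%, and 73.2% in PC9, and 43.3% and 84.2% in replicate 4. The lines did not overlap in this share. The other mapped reads include those that touched more than 1 gene, and how many touched none cannot be told apart from the gene rows. A read that touched both a gene and the D-loop may be counted in both rows, so that these shares may be too high. When mapped reads rather than total reads were the denominator, the median log2 fold change over all tested rows in edgeR was 0.65 in place of 2.50. On that denominator H23 was above PC9 without overlap in 8 rows (21.1%), all protein-coding (ND1, ND2, ATP8, ATP6, COX3, ND4L, ND4, and CYTB), and PC9 was above H23 in 1 row (2.63%), RNR2.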

How the data were processed

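The authors base-called nanopore reads with Dorado, mapped them with minimap2 2.17-r941 to the mitochondrial genome alone, so that reads from nuclear copies were not set apart, and counted mapped and total reads with SAMtools 1.10. They deposited raw counts per annotated feature, made with featureCounts for long reads (overlap of at least 6 bases, multi-mapping reads not counted), and a percent of mapped reads, which was recomputed here from the counts. The methods state that reads may count for several features, but gene rows never exceeded class rows in any library, and they were read as counts of reads that touch 1 gene. Tables hold 99 feature rows, and all 37 gene symbols matched RefSeq by position. D-loop means the row starting at 16024.

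Levels were reads per 1000000 total reads and shares were percent of gene-row counts, computed in Python 3.11.15 (pandas 2.3.3, numpy 2.4.6). Rows with at least 10 counts in at least 3 of the 9 untreated libraries of H1437, H23, and PC9 (36 of 38) were tested with edgeR 4.0.16 in R 4.3.3 (quasi-likelihood test, cell line as the only term, Benjamini-Hochberg adjustment over tested rows). The relative test used TMM normalization, and the level test used total reads as library size. DESeq2 1.42.0 was an alternative. The edgeR script was also run on simulated data with a smaller spread than these data have, which does not show how the test performs here. Two-sided exact permutation tests served for class sums. A chi-square test found every pair of replicates to differ beyond sampling noise, and none was merged. Named genes followed a rule: the rRNA genes, D-loop, and 13 protein-coding genes, and the 4 tested tRNA genes with the largest and the 4 with the smallest difference. The rows, lists, and tests were chosen with earlier results of these data known. Alternatives covered the normalization, filter, denominator, tRNA rows, row class, library set, block, and each replicate. Leaving out the D-loop row and setting normalization factors to 1 were chosen after seeing the data. No sequence was printed, since none of the mitochondrial genome was used here. The total count of each library and the 3 libraries per line limit the precision.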

Additional observations from a re-analysis of the deposited data

How the results depend on the processing

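The relative test, with 4 rows called, gave 0 with the 6 libraries alone, with no filter on low counts, with the replicate block, with the tRNA gene rows left out, with the class rows, and, chosen after seeing the data, with the D-loop row left out or normalization factors of 1. DESeq2 gave 2, and leaving out 1 library at a time gave 0 to 6, with 6 without H23 replicate 1 and 0 in the 5 other cases. The level test, with 0 rows called, gave 10 with DESeq2, 10 with the tRNA gene rows left out, 13 with replicate 4 added, and 0 to 12 when 1 library was left out, with 12 without PC9 replicate 2. The cause was not tested. The replicate numbers were checked for pairing: same-numbered H23 and PC9 libraries correlated at 0.085, -0.032, and -0.785 over 36 rows. No sample of H23 correlated best with its own number except replicate 1. Because values were centered on the mean of 3 libraries per line, these correlations depend on one another. They cannot show whether same-numbered libraries shared a preparation or a run. The replicate block left 0 calls in both tests. With mapped reads as denominator, the log2 fold change of the level turned to -1.05 for RNR1, -1.38 for RNR2, -1.28 for TRNG, -0.67 for TRNL2, -1.30 for TRND, and -1.29 for TRNM. Over the libraries left out it ranged from -0.0578 to 2.65 for TRNL2 and from -0.53 to 1.76 for TRND, both negative without H23 replicate 2, and the difference in tRNA share ranged from -0.85 to 17.3 percentage points over the libraries left out. The rows in which H23 was higher without overlap numbered 8 per mapped reads and 11 by gene-row counts (PC9 was higher in 1 row, RNR2, in both). With 1 library left out they numbered 17 to 24, and leaving out a library cannot bring the number below 17. The other class sums kept their direction in the alternatives run. Mapped reads as the denominator, with which both rRNA genes turned, were not run for the class sums. On class rows the set of rows without overlap changed, with ND1, COX1, and TRNL1 out of it and TRNV, TRNW, and TRNS1 in it. In the shallowest library, H23 replicate 1, 3 counts equal 24.5 reads per 1000000 total reads.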
